A study of Mus musculus with 6 samples.

Results

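The 41 genes described here encode the enzymes that take glucose to lactate, the regulators and carriers that serve those enzymes, and genes known to respond to low oxygen through the hypoxia-inducible factors (HIFs). They were taken by symbol from a table of 24421 genes, and all 41 symbols were found. By role, 17 are glycolytic enzymes, 2 are PFKFB regulators of phosphofructokinase, 3 are carriers of glucose or lactate, 2 are pyruvate dehydrogenase kinases, 13 are other HIF-responsive genes, and 4 are HIF subunits or VHL. RNA was compared between 3 libraries of Ube3d-knockout (KO) and 3 of wild-type (WT) 3T3-L1 cells, a line of mouse embryonic fibroblasts used as a preadipocyte model. Both genotypes were undifferentiated and were kept at no more than 80% confluence in DMEM with 4.5 g/L glucose, 10% serum and antibiotics under 5% CO2. No low-oxygen treatment is part of the labels. How the knockout was made, whether it is a single clone and how separate the replicate cultures were are points on which the labels are silent, so the p-values measure only the spread between these samples.

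Glycolysis splits glucose into pyruvate in the cytosol, and lactate dehydrogenase turns that pyruvate into lactate, which leaves the cell through monocarboxylate carriers. When oxygen is plentiful, prolyl hydroxylases mark the HIF alpha subunits and the VHL protein targets them for degradation. When oxygen is scarce, the alpha subunit pairs with ARNT and binds promoters that hold the core letters ACGTG or GCGTG. Many glycolytic genes are HIF targets, and so are genes for pH control, blood vessel growth, mitophagy and feedback on HIF itself. HIF activity is regulated mainly at the protein level, which these RNA counts do not measure.

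The libraries held 25267434 to 28042970 gene counts in KO and 23767181 to 29389480 in WT. The ribosomal RNA precursor gene Rn45s took 9.68% to 10.2% of the counts in KO and 7.28% to 8.91% in WT. Ube3d, listed under its older symbol Ube2cbp, had 56, 43 and 53 counts in KO, against 145, 229 and 173 in WT. That was a log2 change of −1.86 (SE 0.15, edgeR adjusted p = 6.6e-18), so counts at this gene fell and did not reach 0. Levels are given here as CPM, counts scaled to the depth of each library after the trimmed mean of M-values (TMM) adjustment. The 11 fibroblast and preadipocyte markers summed to 13926 to 14281 CPM in KO and 15708 to 16162 CPM in WT, with Vim the highest. The list was split, since 3 of its genes rose (Dcn by 2.48 on the log2 scale, Dlk1 by 1.12 and S100a4 by 0.31), 7 fell (Col1a1, Col1a2, Col3a1, Fn1, Pdgfra, Pdgfrb and Thy1) and Vim was not called. Markers of macrophages and leukocytes, endothelium, epithelium and mature adipocytes summed to at most 16.8 CPM in any library, with Cd14, Cdh5, Cldn7 and Lipe the highest of their lists in WT, and Adgre1, Tie1, Epcam, Krt18 and Lep were among those at 0. In bulk RNA such as this, fewer cells with a transcript and less transcript per cell cannot be told apart.

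Of the 41 genes, 37 had enough counts to test. Of these, 9 rose and 15 fell in KO relative to WT, and 13 did not pass an edgeR adjusted p of 0.05. The 24 called genes are 64.9% of the 37, beside 61.4% of all 12947 tested genes, where 30.3% rose and 31.2% fell. The share called among the 37 was therefore near that of all genes. The median log2 change of the 37 was −0.04, beside 0.00 for all genes, and 26 of them had a log2 change smaller than 0.32 in either direction. A change of at least 2-fold was seen in 3, the carbonic anhydrase gene Car9, the peptide hormone gene Adm and the HIF alpha gene Epas1. All 3 were low, at under 3 CPM in every library.

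**Figure D1:**
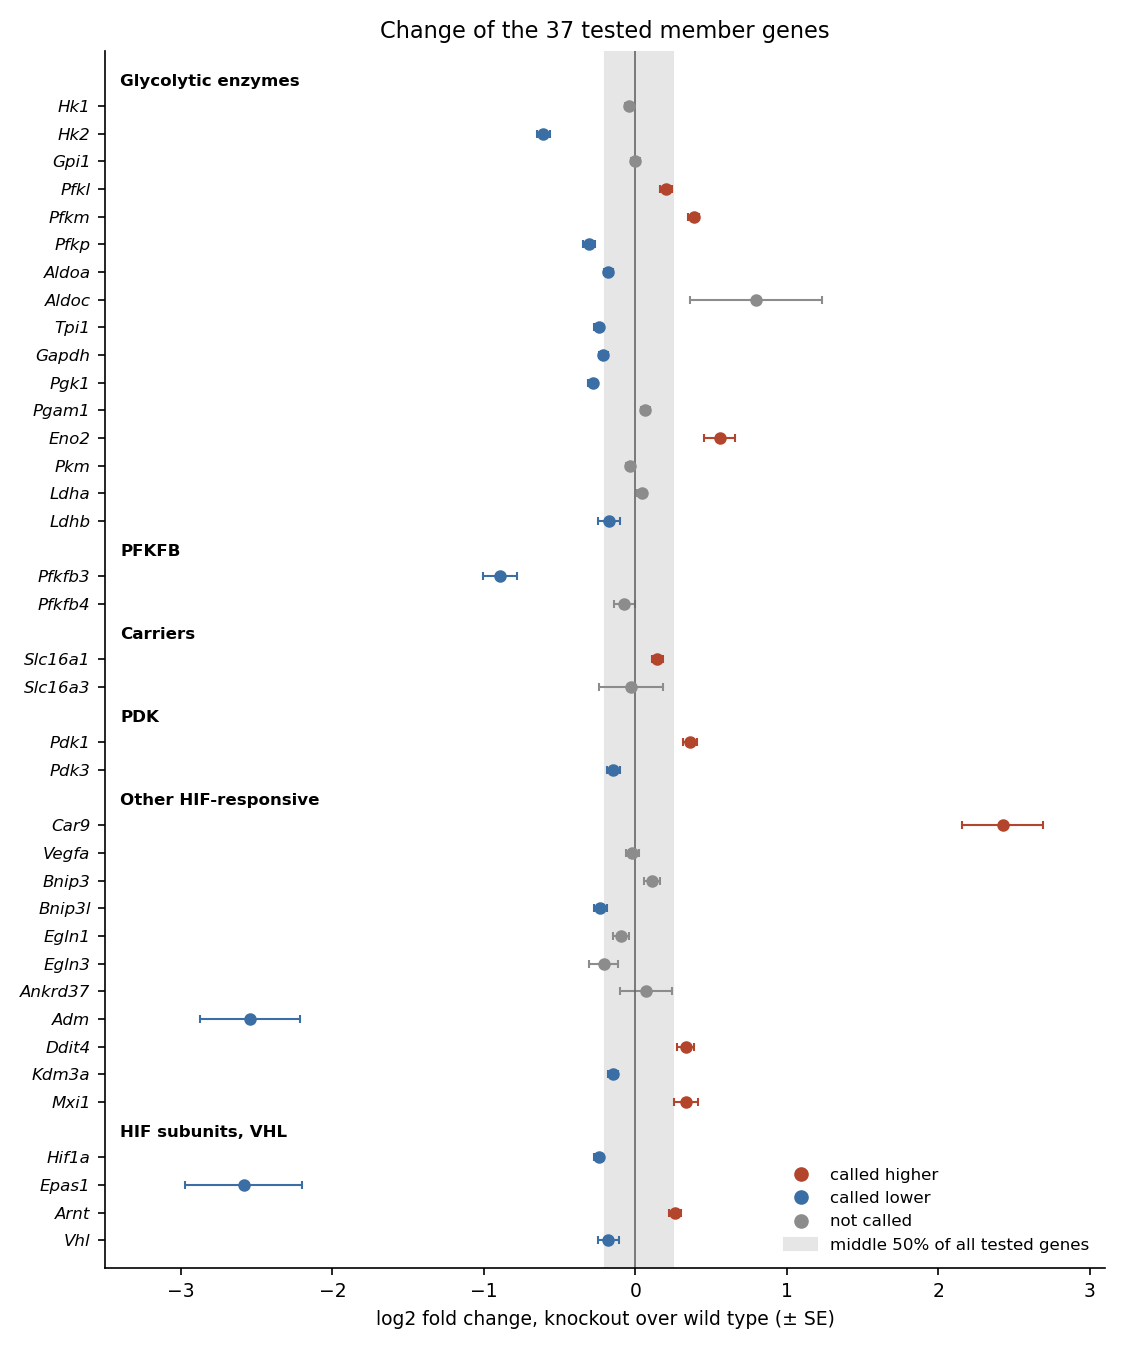
The log2 change of each of the 37 tested genes in KO relative to WT, with its standard error, grouped by role and coloured by call, with the middle 50% of all tested genes shaded. Most points lie within 0.32 of 0, and Car9, Adm and Epas1 lie beyond 2-fold.

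Promoter sequences were available from RefSeq (GRCm38.p6) for 37 of the 41 genes, with no entry for Slc2a3, Bnip3l, Ndrg1 and Epas1. Windows of 300 bases, from 250 before a transcript start to 50 after it, were searched on both strands for ACGTG and GCGTG. Of the 37 genes, 32 (86.5%) held a match, beside 67.3% of 9722 tested genes and 46.7% of all 27025 genes with a promoter. Some genes have several windows, and by window the shares were 74.5% of the 55 windows of the 37 genes and 61.6% of those of tested genes. ACGTG alone was found in 23 of the 37 genes (62.2%), beside 29.2% of tested genes. A match to either core was found in 8 of 9 genes that rose, 11 of 13 that fell and 12 of 13 that were not called. For ACGTG alone it was 5 of 9 that rose, 7 of 13 that fell and 11 of 13 that were not called. Matches thus stood in genes of every outcome. A match describes letters in a window, not a bound site.

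The 150 bases before the start of 5 genes are printed because these genes show the range of responses in KO: Car9 rose most, Adm and Hk2 fell, Pgk1 fell slightly at a high level, and Ldha was not called. They read 5′ to 3′ on the strand of the gene, and capitals mark ACGTG or GCGTG, or their reverse complements CACGT and CACGC. In Ldha, the capitals CACGTG are an E-box, a palindrome that holds ACGTG on both strands. The windows are chr4:43506876-43507025 on the plus strand for Car9, chr7:110627507-110627656 on the plus strand for Adm, chr6:82774455-82774604 on the minus strand for Hk2, chrX:106186950-106187099 on the plus strand for Pgk1 and chr7:46845654-46845803 on the plus strand for Ldha.
Car9: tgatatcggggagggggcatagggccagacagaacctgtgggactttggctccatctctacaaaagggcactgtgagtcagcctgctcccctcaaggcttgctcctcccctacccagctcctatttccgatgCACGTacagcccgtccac
Adm: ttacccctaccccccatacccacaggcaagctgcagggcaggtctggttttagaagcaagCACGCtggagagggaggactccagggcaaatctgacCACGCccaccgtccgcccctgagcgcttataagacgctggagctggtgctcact
Hk2: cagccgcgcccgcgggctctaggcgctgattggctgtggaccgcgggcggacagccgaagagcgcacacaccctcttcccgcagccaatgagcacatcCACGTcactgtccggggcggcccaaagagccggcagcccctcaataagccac
Pgk1: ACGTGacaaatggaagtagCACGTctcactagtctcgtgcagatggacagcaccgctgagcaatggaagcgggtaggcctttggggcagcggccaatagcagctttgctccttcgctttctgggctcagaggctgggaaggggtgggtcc
Ldha: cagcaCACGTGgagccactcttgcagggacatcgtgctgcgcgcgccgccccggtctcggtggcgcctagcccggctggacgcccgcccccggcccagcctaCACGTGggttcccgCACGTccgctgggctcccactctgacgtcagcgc
Counting back from the transcript start, the match in Car9 began at position −18, close to the start. Those in Adm began at −90 and −54, and the one shown for Hk2 at −52. In Pgk1 they began at −150 and −131. Ldha held 5 matches in these 150 bases, 4 of them inside 2 copies of CACGTG, which was present in windows of 6 of the 37 genes (Bnip3, Hif1a, Ldha, Pfkfb3, Pfkm and Slc16a1) and of 11.6% of tested genes.

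Glycolytic enzymes were mixed in direction, and their changes were small. Of the 17, 16 were tested, of which 3 rose, 7 fell and 6 were not called. That is 62.5% called, beside 61.4% of all tested genes, where 30.3% rose and 31.2% fell. Of the tested genes that average at least 50 CPM, 73.3% were called. None of the 16 enzymes changed by 2-fold, and their median log2 change was −0.04. In 12 of the 16 the libraries of KO and WT did not overlap, with KO above WT in 5 and below in 7, beside 64.3% of all tested genes without overlap. The 4 consecutive steps from aldolase to phosphoglycerate kinase each had a main gene that fell in KO (Aldoa, Tpi1, Gapdh and Pgk1). Genes that fell were not confined to those steps: Hk2 and Pfkp fell upstream, and the enolase entries Eno1b and Eno3, outside the 41 genes, fell downstream. The fall of Eno1b does not describe Eno1, as given below. The 3 enzymes that rose were Pfkl and Pfkm upstream and Eno2 downstream. Hk1, Gpi1, Pgam1, Pkm and Ldha were not called. Summed over the 17 genes, the level was 7262, 7409 and 7404 CPM in KO, against 8053, 7719 and 7895 CPM in WT, a mean difference of −6.73% with no overlap.

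At the entry step, hexokinase traps glucose in the cell as glucose phosphate. Hk1, the widely expressed form, had 169.8, 171 and 174 CPM in KO, against 173, 175 and 180.3 CPM in WT. Its difference was within the spread of the libraries (log2 −0.04, SE 0.03, adjusted p = 0.26). Hk2, the insulin- and HIF-responsive form (chr6:82725027-82774454, minus strand), had 47.9, 45.0 and 46.6 CPM in KO, against 66.0, 70.3 and 75.8 CPM in WT. Every KO library lay below every WT library, and Hk2 fell 1.52-fold (log2 −0.61, SE 0.05, adjusted p = 2.2e-19). Per kilobase of exon, Hk1 took 81.8% ± 0.541 of the hexokinase counts in KO and 75.3% ± 0.923 in WT (SD, n = 3 each, exact permutation p = 0.1, the smallest that 3 against 3 can give). Gpi1, glucose phosphate isomerase, averaged 271 ± 4.08 CPM in KO and 271 ± 9.27 CPM in WT, and was not called (adjusted p = 0.99).

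Phosphofructokinase, the committed step, is built from the subunits of 3 genes, and these moved apart. Pfkm, the muscle form (chr15:98092589-98132447, plus strand), had 92.2, 95.9 and 98.0 CPM in KO, against 72.0, 73.8 and 73.3 CPM in WT. All 3 KO libraries were above all WT libraries, and Pfkm rose 1.31-fold (log2 0.39, SE 0.04, adjusted p = 3.1e-14). Pfkl, the liver form, had 82.7, 83.6 and 83.9 CPM in KO, against 74.1, 71.2 and 72.3 CPM in WT, a rise with no overlap (log2 0.20, SE 0.04, adjusted p = 5.9e-06). Pfkp, the platelet form, went the other way, with 71.3, 68.8 and 71.3 CPM in KO, against 85.6, 87.7 and 87.6 CPM in WT (log2 −0.30, SE 0.04, adjusted p = 2.3e-10). Pfkp overlaps Pitrm1 on the opposite strand, and without a stated strand setting for the counting, reads of the pair cannot be told apart.

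As shares of the phosphofructokinase counts per kilobase, Pfkm took 43.5%, 44.7% and 44.8% in KO, against 36.9%, 37.6% and 37.3% in WT. Pfkp took 23.9% ± 0.585 in KO and 32.3% ± 0.333 in WT, and Pfkl 31.8% ± 0.293 in KO and 30.4% ± 0.699 in WT (SD, n = 3 each). None of these shares overlapped between genotypes, and each exact permutation p was 0.1, the smallest possible, or 0.11 after Benjamini-Hochberg adjustment over the 19 shares compared. Pfkm was the highest of the 3 per kilobase in both genotypes, while the lowest was Pfkp in KO and Pfkl in WT. Summed per kilobase, the 3 genes came to 70.5 ± 1.11 CPM per kb in KO and 64.2 ± 0.231 CPM per kb in WT, so the step total was 9.82% above WT.

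**Figure D2:**
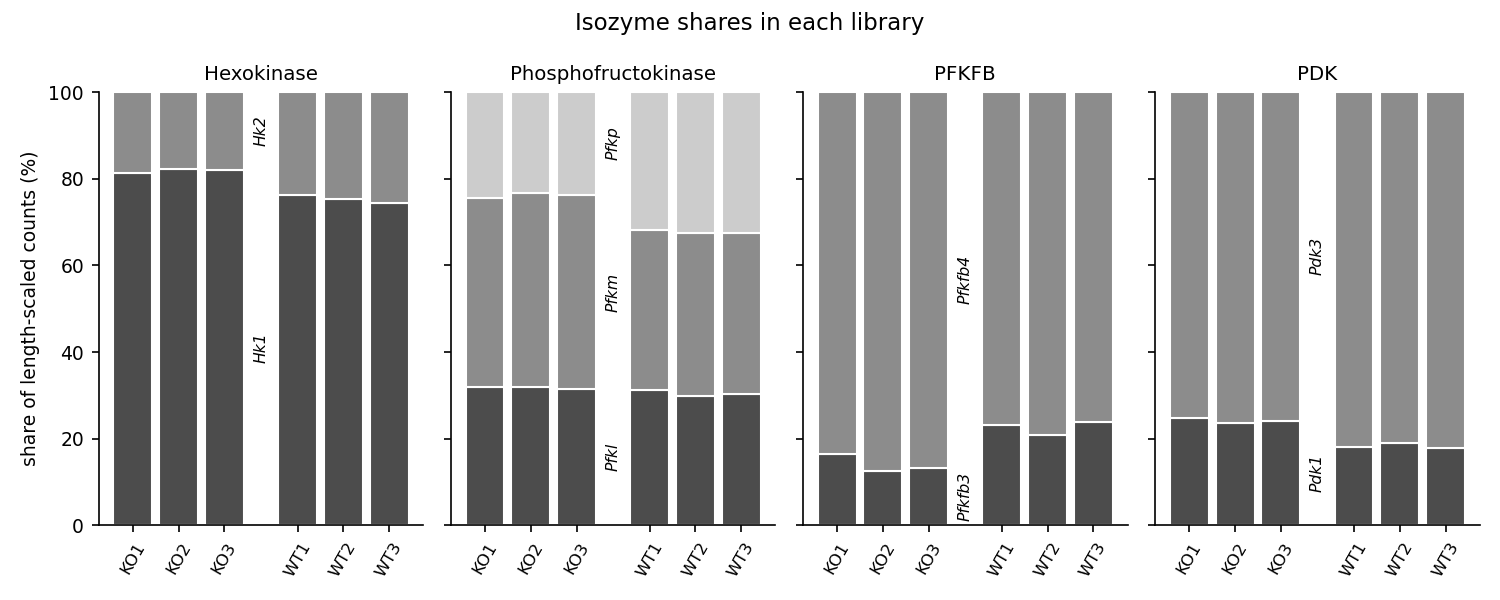
Share (percent) held by each isozyme of a step's counts per kilobase, summed over the genes of that step among the 41. Each library is 1 stacked bar, with the 3 KO libraries at the left and the 3 WT libraries at the right of each panel. Hk1, Pfkm and Pdk1 take a larger share in every KO library than in any WT library, and Pfkfb3 takes a smaller one.

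The next run of steps cleaves the sugar and makes the first ATP. Aldoa, the main aldolase, had 525, 524 and 547 CPM in KO, against 625, 581 and 602 CPM in WT, and fell by 0.18 on the log2 scale (SE 0.03, adjusted p = 3.6e-07). Tpi1, triose phosphate isomerase, had 434, 439 and 420.3 CPM in KO, against 522, 501 and 506 CPM in WT, and fell by 0.24 (SE 0.03, adjusted p = 6.7e-11). Neither gene overlapped between genotypes, although Tpi1 shares its locus with Spsb2 on the other strand. Gapdh, which makes NADH and is often used as a loading control, had 1324, 1359.8 and 1345 CPM in KO, against 1609, 1537 and 1519 CPM in WT. It fell by 0.21 (SE 0.03, adjusted p = 2.2e-09). Pgk1, phosphoglycerate kinase (chrX:106187100-106203699, plus strand), had 669, 696 and 661 CPM in KO, against 826, 804 and 832 CPM in WT, and fell 1.22-fold (log2 −0.28, SE 0.03, adjusted p = 2.0e-13). The brain aldolase gene Aldoc was near the limit of counting, with 0.472, 0.440 and 0.534 CPM in KO, against 0.300, 0.370 and 0.149 CPM in WT, and was not called (log2 0.80, SE 0.44, adjusted p = 0.11).

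Of the later steps other than enolase, described next, the main genes were not called. Pgam1, phosphoglycerate mutase, had 286, 289 and 297 CPM in KO, against 291, 268 and 274 CPM in WT (log2 0.07, SE 0.03, adjusted p = 0.052). It passed the threshold without WT replicate 1 (log2 0.10, adjusted p = 0.0085). With all libraries kept, it also passed with RLE scaling, limma-voom, a filter of at least 1 CPM or no Rn45s (adjusted p 0.024 to 0.048). Pkm, pyruvate kinase, had 2236, 2281 and 2325 CPM in KO, against 2375, 2279 and 2359 CPM in WT, which overlapped (log2 −0.04, SE 0.03, adjusted p = 0.28). Per kilobase, Gapdh and Pkm were the highest of the 41 genes, at 898 and 878 CPM per kb in KO, against 1039 and 899 CPM per kb in WT. Splice forms of Pkm are not separated in counts per gene. Ldha, the main lactate dehydrogenase subunit, had 1034, 1056 and 1034 CPM in KO, against 1030.4, 979.8 and 1025 CPM in WT. Its KO libraries were all above WT by a narrow margin, and it was not called (log2 0.04, SE 0.03, adjusted p = 0.20). Ldhb, the heart-type subunit, averaged 15.3 CPM in KO and 17.3 CPM in WT and fell by 0.17 on the log2 scale (SE 0.07, adjusted p = 0.034). That call was lost with DESeq2 (adjusted p = 0.0995) and when KO replicate 1 or 2 or WT replicate 1 or 3 was left out (adjusted p 0.082 to 0.11).

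Enolase is the step these counts describe least well. Eno1, the ubiquitous form, was listed with 0, 0 and 1 counts in KO and 1, 2 and 3 counts in WT. Of its 1776 exonic bases in the table, 1649 (92.8%) are also listed for Eno1b, an entry with exons on chromosomes 18 and 4. Eno1b had 126, 138 and 137 CPM in KO, against 158, 146 and 146 CPM in WT, and fell by 0.16 on the log2 scale (SE 0.03, adjusted p = 6.2e-05). Although most of its bases are shared, Eno1 held at most 3 counts in any library. Reads on the shared bases were thus hardly credited to Eno1. The other 1762 exonic bases of Eno1b lie on chromosome 18. All 1649 of its chromosome 4 bases are shared, so a read on them lies on Eno1 too. If both entries were counted alike, the Eno1b counts thus came from its chromosome 18 bases. Which gene those reads were transcribed from is not shown, so the fall of Eno1b does not describe the level of Eno1. The sum over the 17 enzyme genes likewise holds almost nothing for Eno1. Eno2, the neuronal form, had 9.43, 10.7 and 10.2 CPM in KO, against 6.17, 7.04 and 7.32 CPM in WT. It rose 1.47-fold with no overlap (log2 0.56, SE 0.10, adjusted p = 1.7e-06).

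**Figure D3:**
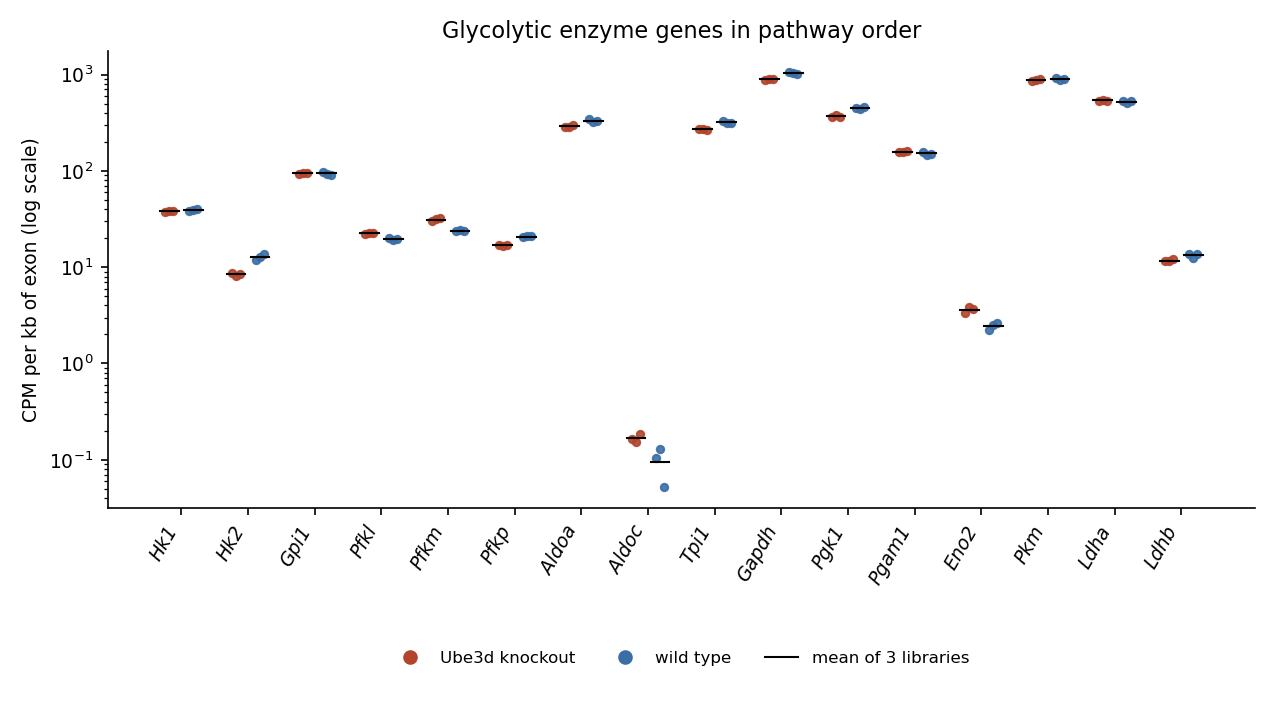
Level of each tested glycolytic enzyme gene in CPM per kb of exon on a log axis, in pathway order, with 1 point per library and a bar at the mean, KO at the left and WT at the right of each gene. Aldoc is the lowest and Gapdh and Pkm are the highest, and KO lies below WT for Aldoa, Tpi1, Gapdh and Pgk1.

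Several of these genes have processed pseudogenes. In mouse GENCODE M21 transcripts, 68.0% of the 50-base stretches of Pgk1 and 58.4% of those of Gapdh also occur in another gene, as do 41.5% for Pgam1, 24.5% for Gpi1, 23.7% for Pkm and 21.0% for Ldhb. The values of those genes are uncertain to that extent, since it is not stated how reads with several alignments were counted. For Aldoa and Tpi1 the shares were 6.57% and 6.83%, and Hk2 had none. With the genes above 20% left out, 10 enzymes were tested, of which 3 rose and 4 fell, with a median log2 change of 0.00. That alternative was chosen after the data had been seen.

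The PFKFB enzymes make and remove a fructose bisphosphate that activates phosphofructokinase. Pfkfb3 (chr2:11471431-11553929, minus strand), whose product favours its synthesis, had 6.17, 4.66 and 4.56 CPM in KO, against 9.17, 9.46 and 9.83 CPM in WT. It fell 1.86-fold with no overlap (log2 −0.89, SE 0.11, adjusted p = 1.2e-10). Pfkfb4 had 19.8, 20.6 and 18.9 CPM in KO, against 19.3, 22.8 and 19.99 CPM in WT, which overlapped (log2 −0.07, SE 0.07, adjusted p = 0.37). Of the Pfkfb3 and Pfkfb4 counts per kilobase, Pfkfb3 thus took 14.1% ± 2.13 in KO and 22.6% ± 1.55 in WT (SD, n = 3 each, exact permutation p = 0.1). Pfkfb1 and Pfkfb2, outside the 41 genes, are not in that share. Pfkfb1 averaged 1.91 CPM per kb in KO and 3.22 CPM per kb in WT and was called lower. Pfkfb2 averaged 2.08 CPM per kb in KO and 1.71 CPM per kb in WT and was called higher. Pfkfb3 averaged 0.970 CPM per kb in KO and 1.79 CPM per kb in WT.

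The carrier genes among the 41 differed little where they could be tested. Further glucose transporters, some with larger changes, are given below. Slc16a1, which encodes the monocarboxylate carrier MCT1, had 97.7, 98.5 and 97.2 CPM in KO, against 88.8, 85.7 and 91.0 CPM in WT, and rose by 0.15 on the log2 scale (SE 0.04, adjusted p = 4.4e-04). Slc16a3, which encodes the HIF-responsive carrier MCT4, was low, at 1.69, 1.91 and 1.57 CPM in KO and 1.97, 1.78 and 1.53 CPM in WT, and was not called (log2 −0.03, SE 0.21, adjusted p = 0.91). The neuronal-type glucose transporter Slc2a3 had 1 count in all over the KO libraries and 1 over the WT libraries and was not tested.

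Pyruvate dehydrogenase kinases switch off the entry of pyruvate into the TCA cycle, and the 2 among the 41 genes moved in opposite directions. Pdk1 (chr2:71873224-71903858, plus strand), a known HIF target, had 49.3, 47.3 and 47.5 CPM in KO, against 37.5, 37.3 and 37.4 CPM in WT. It rose 1.28-fold (log2 0.36, SE 0.05, adjusted p = 1.0e-09). Pdk3 had 58.1, 58.7 and 57.6 CPM in KO, against 65.7, 60.9 and 66.4 CPM in WT, and fell by 0.14 (SE 0.04, adjusted p = 0.0027). Neither gene overlapped between genotypes, and Pdk1 held 24.2% ± 0.467 of their counts per kilobase in KO and 18.3% ± 0.681 in WT (SD, n = 3 each, exact permutation p = 0.1). Pdk2 and Pdk4, outside the 41 genes, are not in that share. Pdk2 averaged 4.69 CPM in KO and 2.43 CPM in WT and rose by 0.94 on the log2 scale (SE 0.15, adjusted p = 1.7e-07). Pdk4, given below, fell by 0.75.

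The other HIF-responsive genes did not move as a block. Of the 13, 11 were tested, of which 3 rose (Car9, Ddit4 and Mxi1), 3 fell (Adm, Bnip3l and Kdm3a) and 5 were not called. That is 54.5% called, beside 61.4% of all tested genes, and the median log2 change was −0.02. Car9 and Adm, the HIF-responsive genes with the largest changes, went in opposite directions.

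Car9 encodes a membrane carbonic anhydrase that controls pH outside the cell and is widely used as a marker of hypoxia (chr4:43507026-43513725, plus strand). It had 70, 68 and 75 counts in KO, against 6, 23 and 10 counts in WT, or 2.75, 2.49 and 2.67 CPM in KO and 0.257, 0.774 and 0.374 CPM in WT. Every KO library was at least 2.49 CPM and every WT library was at most 0.774 CPM. Car9 rose 5.38-fold (log2 2.43, SE 0.27, adjusted p = 2.0e-12), and the ratio of summed scaled counts was 5.39 with an exact 95% interval of 3.82 to 7.80 for counting error only. Without WT replicate 2, the highest WT library, the log2 change was 3.03. The related anhydrase Car12 had 1, 1 and 3 counts in KO and 2, 1 and 3 counts in WT and was not tested.

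Adm encodes adrenomedullin, a vessel-dilating peptide (chr7:110627669-110629819, plus strand). It had 4, 10 and 10 counts in KO, against 30, 47 and 63 counts in WT, or 0.157, 0.367 and 0.356 CPM in KO and 1.28, 1.58 and 2.35 CPM in WT. The groups did not overlap, and Adm fell 5.82-fold (log2 −2.54, SE 0.33, adjusted p = 5.4e-10). The ratio of summed scaled counts was 0.169, with an exact 95% interval of 0.105 to 0.262.

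Among genes of stress and chromatin, Ddit4, an inhibitor of mTORC1 signalling, had 38.8, 43.7 and 42.8 CPM in KO, against 33.3, 30.7 and 35.7 CPM in WT, and rose 1.26-fold (log2 0.33, SE 0.05, adjusted p = 2.3e-07). Mxi1, which opposes MYC, had 16.6, 15.6 and 15.6 CPM in KO, against 13.9, 12.4 and 11.7 CPM in WT, and rose 1.26-fold (log2 0.34, SE 0.08, adjusted p = 1.7e-04). Kdm3a, a histone H3 lysine demethylase, averaged 99.1 ± 0.812 CPM in KO and 109.7 ± 3.51 CPM in WT (SD, n = 3 each) and fell by 0.15 on the log2 scale (SE 0.04, adjusted p = 2.3e-04). In these genes no KO library lay within the WT range.

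The mitophagy receptors of the BNIP3 family differed in their calls. Bnip3l had 60.2, 59.6 and 54.6 CPM in KO, against 68.7, 66.5 and 69.5 CPM in WT, and fell by 0.23 (SE 0.04, adjusted p = 3.5e-06). Bnip3 had 38.8, 40.0 and 39.7 CPM in KO, against 39.2, 33.4 and 37.5 CPM in WT, and was not called (log2 0.11, SE 0.05, adjusted p = 0.062). It passed the threshold without WT replicate 1 (log2 0.15, adjusted p = 0.016). With all libraries kept, Bnip3 also passed with limma-voom, a filter of at least 1 CPM or no Rn45s (adjusted p 0.046 to 0.049). Both have copies in the genome, with 24.4% of the 50-base stretches of Bnip3l and 59.1% of those of Bnip3 found in another gene.

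Vegfa, the vascular growth factor and a standard HIF target, had 61.4, 64.8 and 61.0 CPM in KO, against 63.9, 65.2 and 60.7 CPM in WT, which overlapped (log2 −0.02, SE 0.04, adjusted p = 0.70). The prolyl hydroxylase genes Egln1 and Egln3, which act as oxygen sensors and are themselves HIF-induced, were not called. Egln1 had 33.9, 34.1 and 35.7 CPM in KO, against 38.9, 36.0 and 36.1 CPM in WT (log2 −0.10, SE 0.05, adjusted p = 0.11). Egln3 had 8.92, 10.5 and 8.11 CPM in KO, against 11.2, 10.6 and 10.1 CPM in WT (log2 −0.21, SE 0.09, adjusted p = 0.051). Leaving out 1 library moved Egln3 past the threshold, to a log2 change of −0.32 without KO replicate 2 (adjusted p = 0.0078) and −0.25 without WT replicate 3 (adjusted p = 0.040). With all libraries kept, Egln3 also passed with limma-voom (adjusted p = 0.048) and with no count filter (adjusted p = 0.044). Ankrd37, which overlaps Ufsp2 on the opposite strand, had 2.59, 2.79 and 3.06 CPM in KO, against 3.04, 2.36 and 2.73 CPM in WT (log2 0.07, SE 0.17, adjusted p = 0.75). Ndrg1 had 14, 10 and 7 counts in KO and 8, 9 and 9 counts in WT and was not tested.

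**Figure D4:**
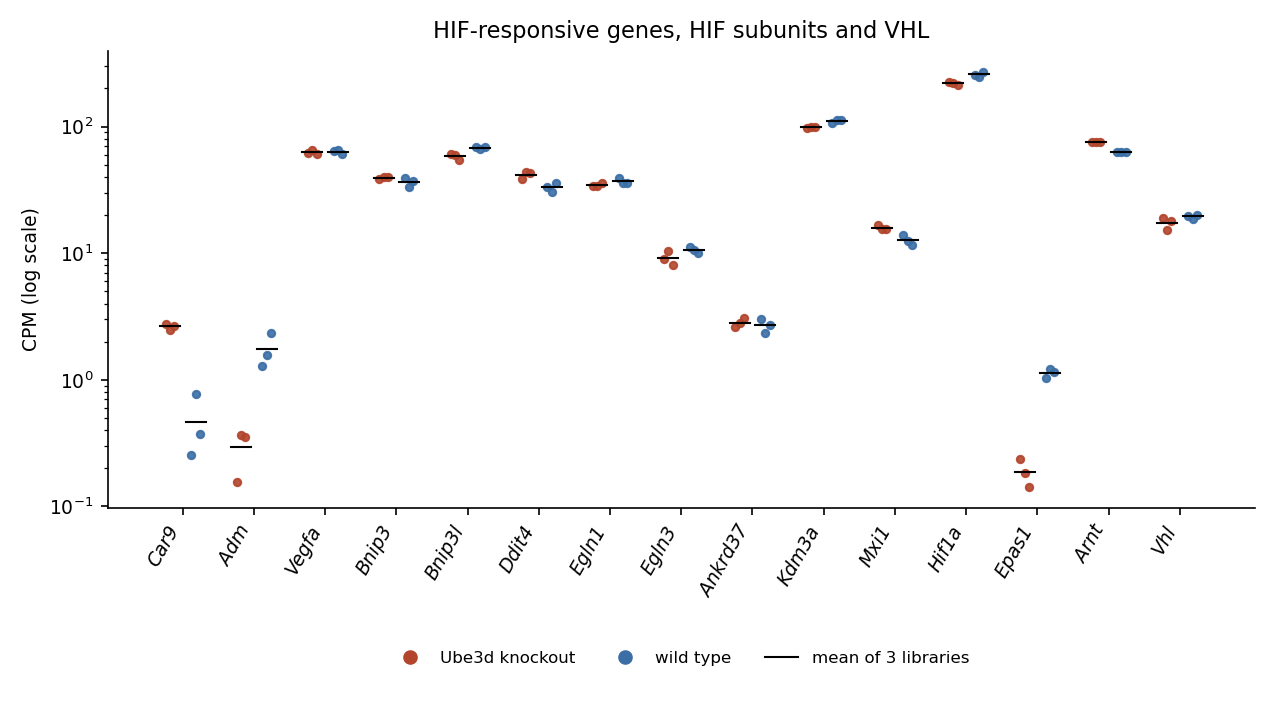
Level of each tested HIF-responsive gene, HIF subunit gene and Vhl in CPM on a log axis, with 1 point per library and a bar at the mean, KO at the left and WT at the right of each gene. Car9 lies above WT in KO, Adm and Epas1 lie below it, and Vegfa overlaps.

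All 4 genes of HIF subunits and VHL were called, 1 higher and 3 lower, beside 61.4% called, 30.3% higher and 31.2% lower over all tested genes. Hif1a (chr12:73907867-73947530, plus strand) had 223, 222 and 211 CPM in KO, against 256, 248 and 272 CPM in WT, and fell by 0.24 on the log2 scale (SE 0.03, adjusted p = 6.0e-10). Epas1, which encodes HIF-2alpha (chr17:86753864-86833410, plus strand), was low, at 6, 5 and 4 counts in KO, against 24, 36 and 31 counts in WT. It fell 6.004-fold with no overlap (log2 −2.59, SE 0.39, adjusted p = 2.6e-08), and the ratio of summed scaled counts was 0.163, with an exact 95% interval of 0.0875 to 0.283. Per kilobase, Epas1 was 0.0758% of the HIF alpha counts in KO and 0.389% in WT. Arnt, the shared partner subunit, had 75.8, 75.3 and 76.1 CPM in KO, against 63.4, 62.7 and 63.1 CPM in WT, and rose 1.20-fold (log2 0.26, SE 0.04, adjusted p = 3.3e-08). Vhl had 18.9, 15.1 and 17.8 CPM in KO, against 19.8, 18.8 and 20.02 CPM in WT, which overlapped by a narrow margin (log2 −0.18, SE 0.07, adjusted p = 0.029). The Vhl call was lost with DESeq2 (adjusted p = 0.10), without KO replicate 2 (log2 −0.09, adjusted p = 0.31), and without WT replicate 1 or 3 (adjusted p = 0.056 and 0.083).

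Genes on some chromosomes were shifted as a group between the genotypes, and 6 of the 37 tested genes lie on those chromosomes. The median log2 change was −0.24 over 1024 tested genes on chromosome 2, 0.30 over 643 on chromosome 3, and 0.19 on chromosomes 5 and 12. Pdk1 rose although chromosome 2 was lower in KO, and it stood 0.60 above that median, while Pfkfb3 stood at −0.65 from it. Arnt stood at −0.04 and Slc16a1 at −0.16 from the median of chromosome 3, so their rises were no larger than that of their chromosome. Hif1a stood at −0.43 and Egln3, which was not called, at −0.40 from the median of chromosome 12. Smaller medians included −0.111 on chromosome 14 and 0.105 on chromosome 19. They also included −0.10 over 642 tested genes on chromosome 6, which holds 8 of the 41 genes, and −0.09 on chromosome X. Bnip3l stood at −0.12 from the chromosome 14 median. From the chromosome 19 median, Pgam1 stood at −0.04 and Mxi1 at 0.23. From the chromosome 6 median, Hk2 stood at −0.51, Tpi1 at −0.15 and Gapdh at −0.12. Ldhb and Vhl stood at −0.08 from it, Kdm3a at −0.05 and Eno2 at 0.65. On chromosome X, Pgk1 stood at −0.19 and Pdk3 at −0.05 from the median. With chromosomes 2, 3, 5 and 12 left out, 31 of the 41 genes were tested, of which 6 rose and 13 fell. Their median log2 change was still −0.04. Over all genes, the same exclusion left 10029 tested, of which 2597 rose and 3241 fell, with a median log2 change of −0.02. The part of copy number or of any other feature of these chromosomes was not tested.

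Among related metabolic and HIF genes, listed by pathway, more fell than rose. Over 7 lists, 108 genes were tested, of which 25 rose and 58 fell (76.9% called, median log2 change −0.11). Over all tested genes, 61.4% were called, 30.3% higher and 31.2% lower. Of the 4225 genes that average at least 50 CPM, 73.3% were called, with a median log2 change of −0.04. All 8 genes of the pentose phosphate pathway, which draws on glucose phosphate to make NADPH and ribose, were called, 2 higher and 6 lower, with a median log2 change of −0.30. Tkt, transketolase, had 134.3, 140.8 and 138.7 CPM in KO, against 216, 203.9 and 206.1 CPM in WT (log2 −0.60, SE 0.03, adjusted p = 2.2e-27). Rpia, ribose phosphate isomerase, fell by 0.85 on the log2 scale, Pgd by 0.34 and G6pdx, which commits glucose phosphate to the pathway, by 0.29 (adjusted p of at most 5.3e-12).

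Of 27 genes of pyruvate dehydrogenase and the TCA cycle, all tested, 5 rose, 17 fell and 5 were not called. Their median log2 change was −0.12, and 81.5% were called, beside 61.4% of all tested genes, where 30.3% rose and 31.2% fell. Idh3b, a subunit of isocitrate dehydrogenase on chromosome 2, fell by 0.64 on the log2 scale, and Sucla2, a subunit of succinyl-CoA synthetase, by 0.48. Pdp2, a phosphatase that reactivates pyruvate dehydrogenase, averaged 22.7 ± 0.102 CPM in KO and 37.0 ± 1.30 CPM in WT (SD, n = 3 each, log2 −0.71, SE 0.06, adjusted p = 4.9e-18). Pdk4, a kinase that inactivates it, averaged 10.2 ± 0.353 CPM in KO and 17.1 ± 1.79 CPM in WT (log2 −0.75, SE 0.08, adjusted p = 1.9e-12).

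Among other isozymes and gluconeogenic genes, 15 of 26 were tested, of which 4 rose and 7 fell. Called genes were 73.3% of the 15, beside 61.4% of all tested genes. Eno3, the muscle enolase, had 44.2, 45.9 and 45.9 CPM in KO, against 103.6, 98.4 and 100.3 CPM in WT, and fell 2.22-fold (log2 −1.15, SE 0.04, adjusted p = 5.2e-37). Eno2 and Eno3 thus changed in opposite directions. Gpd2, which passes cytosolic reducing equivalents to mitochondria, fell by 0.63 on the log2 scale, Pcx, pyruvate carboxylase, by 0.54 and Pck2, the mitochondrial PEP carboxykinase, by 0.33 (adjusted p of at most 1.6e-08).

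A further 35 HIF target genes, of which 30 were tested, gave 3 that rose, 17 that fell and 10 that were not called. Their median log2 change was −0.16, and 66.7% were called, beside 61.4% of all tested genes, where 30.3% rose and 31.2% fell. Lox, the lysyl oxidase that crosslinks collagen, had 142, 145 and 138 CPM in KO, against 538, 503 and 539.8 CPM in WT, and fell 3.72-fold (log2 −1.89, SE 0.03, adjusted p = 7.0e-57). Tmem45a fell by 0.84 on the log2 scale, P4ha2, a collagen prolyl hydroxylase, by 0.52 and Bhlhe40, a transcriptional repressor, by 0.42 (adjusted p of at most 2.6e-13). Lox and P4ha2 are also genes of the fibroblast matrix, and of the fibroblast markers given above, the collagen genes and Fn1 fell as well while Dcn, Dlk1 and S100a4 rose. The part of those markers in these changes was not tested.

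**Figure D5:**
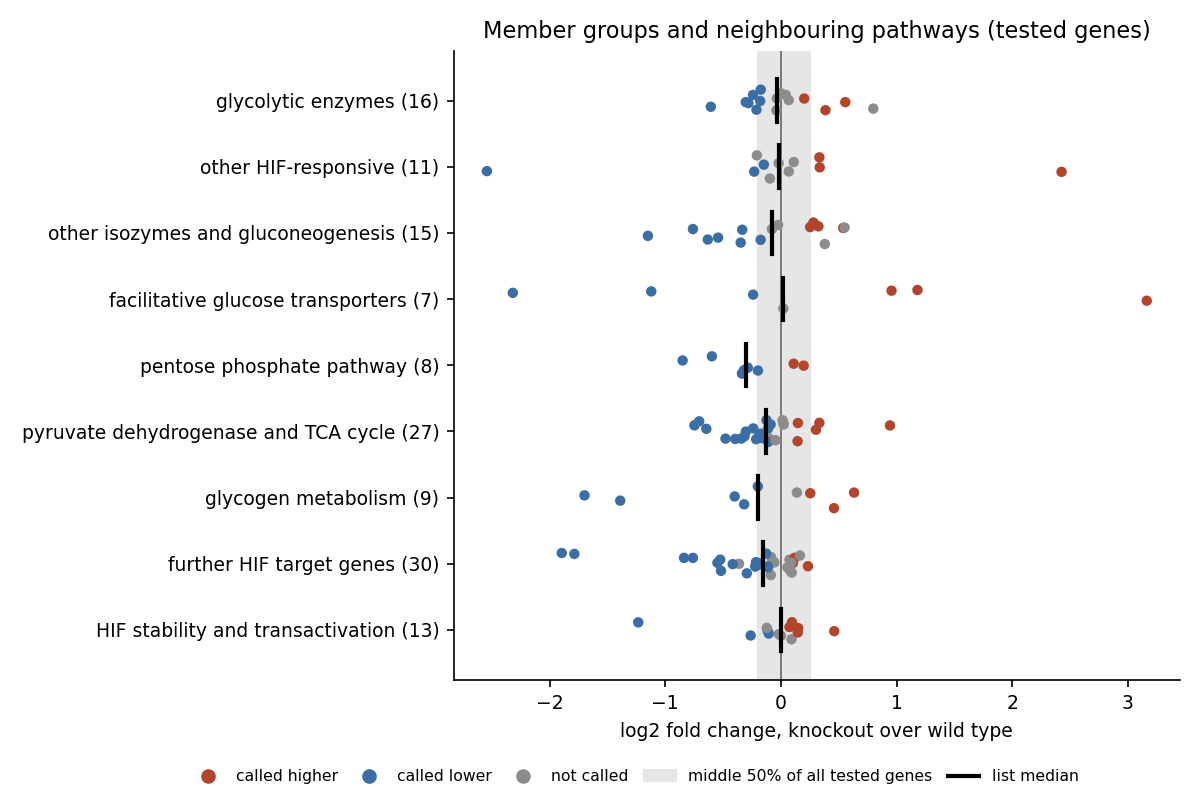
The log2 change in KO relative to WT of every tested gene of each list, 1 point per gene coloured by call, with a bar at the list's median and the middle 50% of all tested genes shaded. Genes lower in KO outnumber genes higher in KO in the pentose phosphate, TCA cycle and further HIF target lists.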

How the data were processed

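Per the labels' protocols, libraries were stranded and depleted of ribosomal RNA. The table deposited by the authors holds raw counts for each gene, as whole numbers, with exon coordinates and strand. The submitters' processing notes name STAR 2.6.1d, featureCounts 1.6.3 and the mm10/GRCm38 build. The strand setting of the counting and the handling of multiply aligned reads are not stated in the labels. Deposited counts of readthrough regions carry no gene name and were not used here.

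Groups and replicate numbers came from the sample titles. Replicates differed by more than sampling noise (chi-square per gene 2.06 to 6.50), so none was counted as a duplicate. KO was compared with WT by edgeR 4.0.16 under R 4.3.3 (quasi-likelihood F test, robust, TMM, minimum count 10, total 15), with two-sided p-values adjusted by Benjamini-Hochberg over all 12947 tested genes. SEs were derived from the log2 change and the F statistic. CPM were computed from TMM-scaled library sizes, per kilobase of exon where genes are compared. Isozyme shares were compared by exact permutation. The scripts were tested on simulated data. Alternatives used DESeq2 1.42.0, limma 3.58.1 voom, RLE scaling, other filters, a replicate block, no Rn45s, no chromosomes 2, 3, 5 and 12, and each library left out. Intervals cover counting error only. Tables and plots were made with Python 3.11.15, pandas 2.3.3, NumPy 2.4.6, SciPy 1.17.1 and matplotlib 3.10.9.

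The genes and lists were chosen with earlier results of these data known. By the rule for named genes, all 41 genes, the targeted gene, the 4 best-ranked genes of each further list by adjusted p and the highest gene of a marker list were to be named. Of these, 1 is not reported here. Any gene named beyond that rule was picked with its values in view.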

Additional observations from a re-analysis of the deposited data

How the results depend on the processing

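Of 480 recomputed values for the 37 tested genes, 458 kept their side of the threshold. The sign turned in 12 of the 480, none of them in a called gene: these were in Gpi1, Pfkfb4, Slc16a3, Vegfa and Ankrd37, at log2 changes of at most 0.04 in size. Of the 24 called genes, 22 were called under every alternative, and Ldhb and Vhl were not. Pgam1, Bnip3 and Egln3 passed the threshold under some alternatives. Among carriers, PFKFB and PDK genes, HIF subunits and VHL, 8 of 10 were called. Without chromosomes 2, 3, 5 and 12, where fewer genes are counted, it was 3 of 5 (0 higher, 3 lower). The whole table gave 7955 of 12947 called, against 5838 of 10029 without those chromosomes. With 1 library left out, 9 to 10 enzymes, 6 to 7 other HIF-responsive genes, 7 to 8 of those 10 genes, 74 to 80 genes of the further lists and 7387 to 7677 genes in all were called. Over all genes, 7955 were called, against 6914 with DESeq2 and 8196 with no count filter. Shares of Pfkm differed by 6.82 to 7.46 points and those of Hk1 by 6.09 to 7.01 points with 1 library left out.

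Same-numbered libraries did not deviate together (r of −0.033 to −0.029), so the numbers do not pair them. With the replicate block, 10 enzymes, 6 other HIF-responsive genes, 8 of the 10 smaller-group genes, 81 genes of the further lists and 7816 genes in all were called. Depth limits Slc2a3, Car12 and Ndrg1, which were too low to test, and Aldoc, with 39 counts in KO and 22 in WT.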

Other observations

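Of 9 tested genes of glycogen metabolism, 3 rose and 5 fell (88.9% called, beside 61.4% of all tested genes). Pygb, the brain glycogen phosphorylase on chromosome 2, averaged 66.2 ± 3.92 CPM in KO and 87.5 ± 0.960 CPM in WT (SD, n = 3 each, log2 −0.40, edgeR adjusted p = 7.9e-14). That change had the sign of its chromosome's median. Ugp2, which makes the activated glucose for glycogen, fell by 0.32 on the log2 scale (adjusted p = 4.6e-12). Ppp1r3b, a subunit that targets a phosphatase to glycogen, was low and fell 3.24-fold, to 0.685 ± 0.130 CPM in KO, against 2.20 ± 0.426 CPM in WT.

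Of 7 tested facilitative glucose transporters, 3 rose and 3 fell (85.7% called, beside 61.4% of all tested genes). Slc2a1, the widely expressed transporter and a known HIF target, averaged 60.9 ± 2.02 CPM in KO and 72.1 ± 2.77 CPM in WT (SD, n = 3 each, log2 −0.24, SE 0.04, edgeR adjusted p = 8.7e-07), with no overlap between the libraries. Slc2a10 averaged 4.46 ± 0.233 CPM in KO and 9.78 ± 1.36 CPM in WT. Slc2a13, a proton myo-inositol carrier, rose 8.96-fold, to 2.85 ± 0.662 CPM in KO, against 0.311 ± 0.0587 CPM in WT (adjusted p = 8.8e-16). Slc2a9, a urate carrier, averaged 3.18 ± 0.393 CPM in KO and 1.62 ± 0.296 CPM in WT.

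Of 13 tested genes of HIF stability and transactivation, 5 rose and 4 fell (69.2% called, beside 61.4% of all tested genes). Usp20, a deubiquitinase on chromosome 2, averaged 32.1 ± 1.6 CPM in KO and 23.3 ± 1.28 CPM in WT (log2 0.46, adjusted p = 3.5e-10), opposite in sign to its chromosome's median. Of the ubiquitin ligase that holds VHL, the scaffold gene Cul2 fell by 0.26 on the log2 scale (adjusted p = 5.8e-08), and the RING subunit gene Rbx1 averaged 84.1 ± 2.10 CPM in KO and 75.9 ± 1.40 CPM in WT (log2 0.15, adjusted p = 5.7e-04). Arnt2, a relative of Arnt, averaged 1.05 ± 0.219 CPM in KO and 2.47 ± 0.371 CPM in WT.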
